A study of Homo sapiens with 9 samples.

Results

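The HOX cluster genes were taken as every row of the deposited expression table whose symbol is HOX, a cluster letter from A to D and a number, with antisense names left out. This gave 39 of 26228 rows: 11 in the HOXA cluster, 10 in HOXB, 9 in HOXC and 9 in HOXD. Values and counts are given for 38 of them, in 9 RNA-seq libraries of Jurkat cells, an established line grown from a human T-cell acute lymphoblastic leukaemia. The libraries were 3 of the line with unedited EZH2 (WT), 3 of the CRISPR/Cas9-edited line EZH2-KO1 and 3 of the CRISPR/Cas9-edited line EZH2-KO2, all grown in complete RPMI medium and collected in exponential growth, with no treatment named. The series title places them in work on EZH2-deficient T-cell leukaemia and inhibition of CHK1, a kinase of the replication checkpoint. Each edited line is 1 line, so replicates measure the spread between samples of that line and not between independent edits, and both edited lines are compared with the same 3 WT libraries.

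HOX genes encode homeodomain transcription factors that give cells their position along the body axis. They lie in 4 clusters, HOXA on chromosome 7, HOXB on 17, HOXC on 12 and HOXD on 2, and genes with the same number in different clusters are paralogues. Low numbers are used towards the head and early in development, high numbers towards the tail, the limb tips and the urogenital tract. Blood stem cells use some HOXA and HOXB genes and lower them as they mature, and raised HOXA levels mark some T-cell leukaemias. In cells that do not use them, HOX genes are classical targets of Polycomb repressive complex 2, whose methyltransferase EZH2 places the repressive mark H3K27me3. Trithorax and MLL proteins act in the opposite direction, and PBX and MEIS proteins bind DNA together with HOX proteins.

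Levels are FPKM, that is, fragment numbers corrected for the length of the transcript and for the size of the library, as mean ± SD of 3 libraries unless each library is given. FPKM sums ran from 417737 to 439704 per library, read depth is unknown, and correlations of log2(FPKM + 1) ran from 0.989 to 0.994 within groups and from 0.931 to 0.982 between them. The EZH2 transcript stood at 74.4, 77.6 and 79.5 FPKM in WT replicates 1 to 3, at 108, 107 and 103 in the libraries labelled KO1 and at 87.9, 89.9 and 90.7 in those labelled KO2. Because FPKM sum the whole transcript and an edit may change only a short stretch, these levels are no check of the labels. All 12 T-cell markers were at 1 FPKM or more in at least 3 of the 9 libraries, with summed levels of 1669 to 1769 in WT, 1403 to 1545 in KO1 and 1636 to 1672 in KO2. KO1 had 3 of them higher and 9 lower, and KO2 3 higher and 6 lower (beside 35.6% and 31.9% of all tested genes in KO1, and 38.1% and 26.6% in KO2, by the limma test described with the HOX counts), and their part in the HOX values was not tested. None of 6 epithelial and none of 6 erythroid and megakaryocyte markers reached 1 FPKM in 3 libraries, and 2 of 6 B-cell, 1 of 8 myeloid and 1 of 7 fibroblast markers did. The B-cell list summed to 26.7 to 31.4 FPKM in WT, 49.97 to 59.5 in KO1 and 19.6 to 23.0 in KO2, and each of the other lists to at most 3.27 in any library. Of the 2 B-cell markers tested, 1 rose and 1 fell in KO1 and both fell in KO2. The 1 myeloid marker tested fell in both lines (log2 fold change -1.03 and -0.96), and may have met the filter through WT libraries alone. The myeloid list summed to 2.62 to 3.27 FPKM in WT, 1.29 to 1.63 in KO1 and 1.33 to 1.66 in KO2. The 1 fibroblast marker tested, COL1A1, rose in both lines (log2 fold change 0.80 and 0.71), and that list summed to 0.462 to 0.554 FPKM in WT, 1.49 to 1.88 in KO1 and 1.27 to 1.60 in KO2. COL1A1 thus met the filter only through edited libraries and was bound to stand higher there. Listed at 0 in every library were 1 B-cell marker (PAX5), 1 epithelial (KRT19), 4 fibroblast (COL3A1 among them), 2 erythroid and megakaryocyte and 0 myeloid markers. The part of these cell types in the HOX values was not tested.

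The 250 bases before the start site are shown for 6 genes, as RefSeq gives them on GRCh38.p14, with each CG dinucleotide in capitals. HOXD13, HOXD8, HOXA13 and HOXA7 are shown because they were higher in both edited lines, and HOXD10 and HOXA9 because they stayed at or near 0. The set was picked after the values were seen.

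HOXD13, chr2:176092471-176092720, plus strand: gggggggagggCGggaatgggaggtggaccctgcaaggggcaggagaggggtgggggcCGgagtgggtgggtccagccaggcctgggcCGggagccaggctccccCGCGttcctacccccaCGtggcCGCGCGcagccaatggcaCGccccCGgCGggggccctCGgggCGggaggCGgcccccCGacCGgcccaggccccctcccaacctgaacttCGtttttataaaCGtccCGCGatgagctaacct

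HOXD8, chr2:176129455-176129704, plus strand: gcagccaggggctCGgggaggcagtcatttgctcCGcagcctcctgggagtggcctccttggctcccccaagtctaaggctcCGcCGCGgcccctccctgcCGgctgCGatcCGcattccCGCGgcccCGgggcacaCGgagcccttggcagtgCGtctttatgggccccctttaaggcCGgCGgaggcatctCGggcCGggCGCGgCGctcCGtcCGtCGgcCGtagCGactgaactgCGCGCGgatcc

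HOXA13, chr7:27200092-27200341, minus strand: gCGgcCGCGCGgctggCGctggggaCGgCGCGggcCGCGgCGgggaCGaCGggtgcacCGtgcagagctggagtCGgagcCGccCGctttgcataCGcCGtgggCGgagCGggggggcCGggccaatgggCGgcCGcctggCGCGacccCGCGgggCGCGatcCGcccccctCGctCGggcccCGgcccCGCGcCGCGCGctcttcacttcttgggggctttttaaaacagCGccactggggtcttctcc

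HOXA7, chr7:27156676-27156925, minus strand: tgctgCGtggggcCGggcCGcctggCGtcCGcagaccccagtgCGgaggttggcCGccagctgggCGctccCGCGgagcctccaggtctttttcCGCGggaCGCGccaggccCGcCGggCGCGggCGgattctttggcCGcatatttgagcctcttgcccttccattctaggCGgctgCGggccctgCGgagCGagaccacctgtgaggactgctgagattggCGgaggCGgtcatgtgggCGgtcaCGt

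HOXD10, chr2:176116528-176116777, plus strand: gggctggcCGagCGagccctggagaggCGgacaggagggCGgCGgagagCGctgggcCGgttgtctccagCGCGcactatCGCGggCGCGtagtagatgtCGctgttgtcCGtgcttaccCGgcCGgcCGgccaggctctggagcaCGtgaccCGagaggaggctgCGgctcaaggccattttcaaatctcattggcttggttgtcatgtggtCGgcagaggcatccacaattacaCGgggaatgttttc

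HOXA9, chr7:27165538-27165787, minus strand: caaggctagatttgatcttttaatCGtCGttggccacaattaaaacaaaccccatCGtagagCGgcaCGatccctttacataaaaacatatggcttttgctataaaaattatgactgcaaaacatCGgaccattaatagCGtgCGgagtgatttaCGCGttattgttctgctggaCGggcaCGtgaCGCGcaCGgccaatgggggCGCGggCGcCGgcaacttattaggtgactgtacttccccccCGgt

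Of the 38 genes, 20 have such a window in the RefSeq table, 27 windows in all, and HOXC4 and HOXC5 share the same one. The windows of HOX genes held from 0 to 40 CG dinucleotides with a median of 19, beside a median of 11 over all 35116 windows, and their median GC content was 58.8% beside 58%. The 40 belong to HOXA13, whereas HOXD8 and HOXA7 have 28 each, HOXD10 has 23, HOXD13 has 21 and HOXA9 has 20. HOXA9, at or near 0 in these cells, thus has the fewest of the 6 shown. HOXD10, also at or near 0, has more than HOXD13. The letters TATAAA, searched on both strands as the only motif besides CG, were in 5 of the 27 HOX windows, among them those of HOXD13 and HOXA9, and in 10.7% of all windows. A match describes the letters and is no evidence that the site is used. Those of the 38 with no window in the table are HOXA5, HOXB2, HOXB3, HOXB4, HOXB5, HOXB6, HOXB7, HOXB8, HOXB9, HOXB13, HOXC6, HOXC8, HOXC9, HOXC10, HOXC11, HOXC12, HOXC13 and HOXD9.

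Unedited Jurkat cells expressed a restricted set of HOX genes, and the 6 highest were numbered 3 to 10. The level was 1 FPKM or more in all 3 WT libraries for 10 of 38 genes: HOXA5, HOXA6, HOXA7 and HOXA13, HOXB3, HOXB4 and HOXB7, HOXC4 and HOXC10, and HOXD13. HOXB7 was the highest at 12.8 ± 0.703 FPKM, clear of all others. HOXC4 (8.24 ± 0.863), HOXB4 (8.14 ± 1.42) and HOXA7 (8.04 ± 0.239) followed and overlapped each other, and HOXB3 (7.17 ± 0.571) and HOXC10 (6.76 ± 0.706) overlapped each other. HOXC4 and HOXB4 also overlapped HOXB3 and HOXC10, and HOXA7 did not. HOXA5 at 4.66 ± 0.455 stood clear of its neighbours in this order. From HOXA13 at 1.62 ± 0.365 FPKM downwards, through HOXA6, HOXD13, HOXC11, HOXB13, HOXA3 and HOXD8, every gene overlapped the next. HOXA9 and HOXA10, the HOXA genes best known from acute leukaemias, were listed at 0 in all WT libraries.

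**Figure D1:**
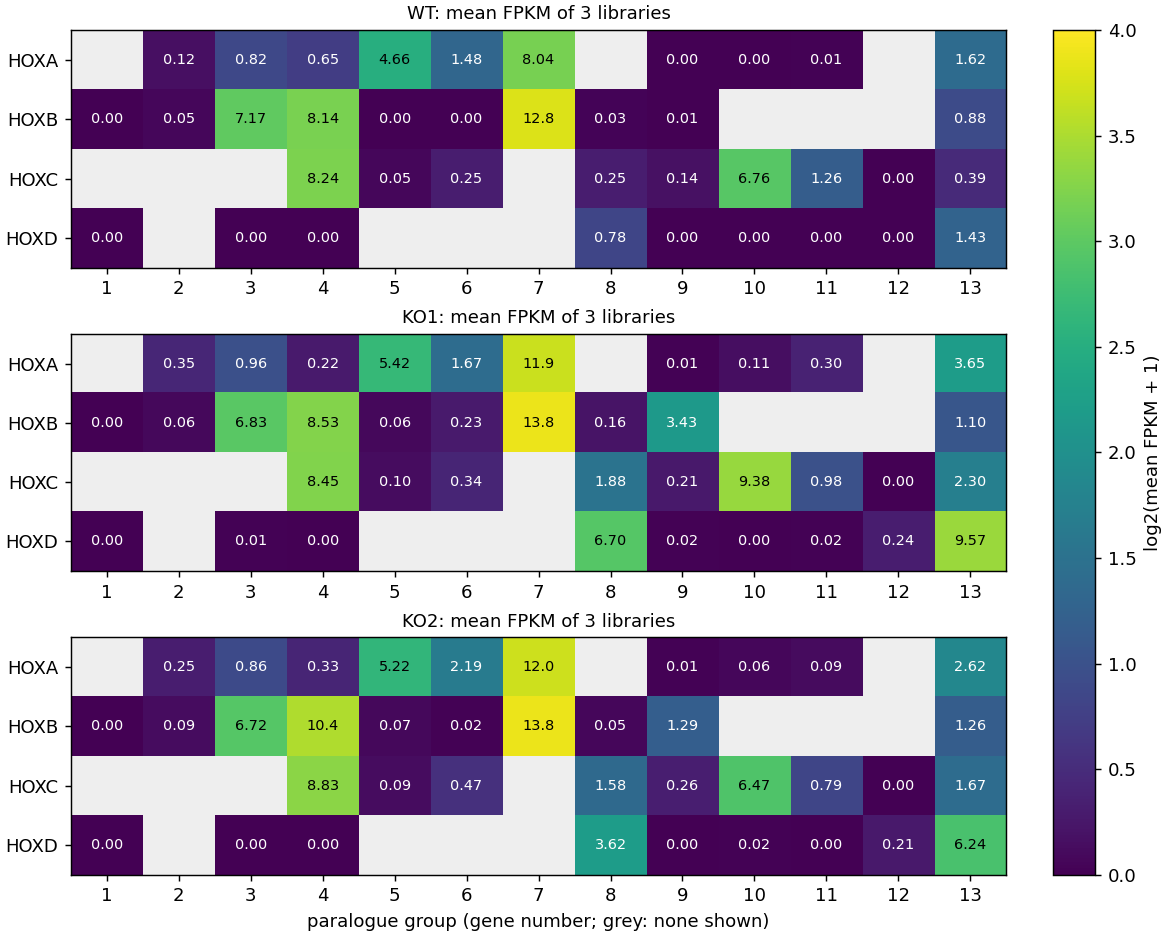
Each tile is the mean FPKM of 3 libraries for a HOX gene, with cluster in rows and gene number in columns, for WT, KO1 and KO2; colour is log2(mean FPKM + 1) and grey marks numbers for which no gene is shown. HOXD8 and HOXD13 are the tiles of the HOXD row that brighten in the edited lines (HOXD13 from 1.43 to 9.57 and 6.24), while the tiles between them stay at or below 0.24.

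In the RefSeq annotation 23 of the 38 genes overlap the span of another gene, often a neighbouring HOX gene or an antisense RNA, such as HOXA3 with HOXA4, HOXA5 and HOXA6, HOXB3 with HOXB4, HOXC4 with HOXC5 and HOXC6, and HOXC11 with HOTAIR. The strandedness of the counting is not given in the sources used here, so reads of such pairs may have been split or shared and their levels are uncertain. HOXA13, HOXB7, HOXB9, HOXC8 and HOXD13 overlap no other gene.

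Summed over the genes described in each cluster, HOXD moved farthest. Its 9 genes together stood at 2.09, 2.398 and 2.13 FPKM in WT, at 14.6, 17.1 and 18.0 in KO1 and at 9.92, 10.5 and 9.82 in KO2. Every edited library was above every WT library, and every KO1 library above every KO2 library. The HOXD share of the summed HOX level was 3.34% in WT, 16.7% for KO1 and 11.5% for KO2. The sum of 10 HOXA genes went from 17.4 ± 0.398 in WT to 24.6 ± 2.1 in KO1 and 23.6 ± 1.41 in KO2, and the HOXB sum from 29.1 ± 1.12 to 34.2 ± 2.55 and 33.7 ± 1.49. For HOXC the sums were 17.3 ± 1.94, 23.6 ± 1.54 and 20.2 ± 1.53. In bulk RNA, more cells with a transcript and more transcript per cell cannot be told apart.

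**Figure D2:**
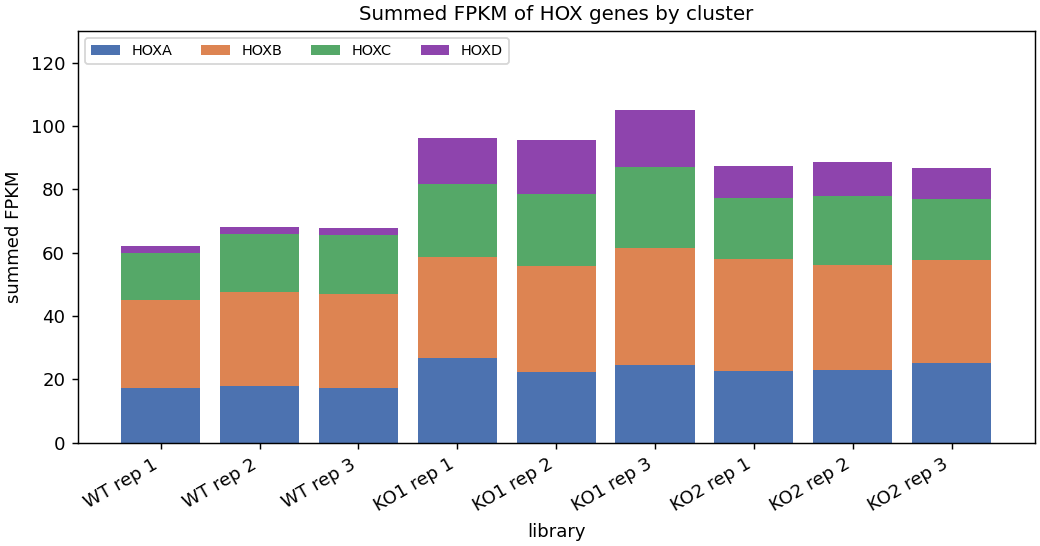
Stacked bars give the summed FPKM of the 38 HOX genes in each of the 9 libraries, coloured by cluster. The HOXD segment is 2.09 to 2.398 in WT, 14.6 to 18.0 in KO1 and 9.82 to 10.5 in KO2.

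For the test, log2(FPKM + 1) of the 11737 genes with at least 1 FPKM in 3 or more libraries was fitted with limma, and 16 of the 38 HOX genes were among them. In KO1 against WT, 8 of these rose: HOXA7, HOXA13, HOXB9, HOXC8, HOXC10, HOXC13, HOXD8 and HOXD13 (limma adjusted p under 0.05). Of all tested genes, 35.6% rose in that comparison. In KO2 against WT also 8 rose, HOXB4 in place of HOXC10, beside 38.1% of all tested genes. None fell in either line by limma, adjusted or at an unadjusted p under 0.05 (0 genes), beside 31.9% of all tested genes that fell in KO1 and 26.6% in KO2, but HOXC11 passed as lower in both lines after quantile normalization and in KO2 after median centring. The median log2 fold change over the 16 was 0.29 in KO1 and 0.35 in KO2, beside 0.02 and 0.06 over all tested genes.

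Neither these counts nor these medians can be read as a property of the HOX genes, because HOXB9, HOXC8 and HOXC13 met the filter only through edited libraries and were bound to stand higher there, and HOXB13 and HOXD8 met it with 1 WT library each and the rest edited. Among genes at 1 FPKM or more in all WT libraries, a subset chosen after the values were seen, 4 of 10 HOX genes rose in KO1 beside 32.8% of 10839 genes, and 4 of 10 rose in KO2 beside 35.7%. None of the 10 fell by limma, and 0 did at an unadjusted p under 0.05, beside 34.4% of these genes in KO1 and 28.7% in KO2. A rise of at least 2-fold on the fitted scale was seen for HOXB9, HOXC8, HOXC13, HOXD8 and HOXD13 in KO1 (5 genes, beside 5.56% of all tested genes) and for HOXB9, HOXC8, HOXD8 and HOXD13 in KO2 (4 genes, beside 3.89%), of which HOXD13 alone had met the filter in WT.

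**Figure D3:**
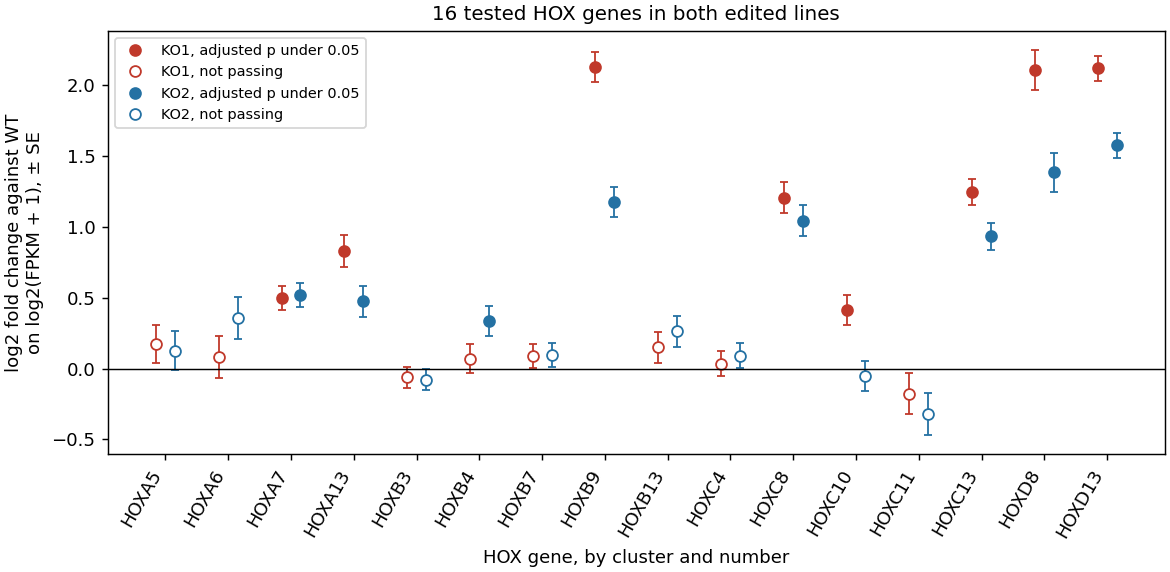
Points give the log2 fold change against WT on the log2(FPKM + 1) scale, with ± SE bars, of the 16 tested HOX genes in KO1 (red) and KO2 (blue), filled where the adjusted p is under 0.05. HOXB9, HOXC8, HOXC13, HOXD8 and HOXD13 lie at 0.93 or above in both lines, and the other 11 lie between -0.32 and 0.83.

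In the HOXD cluster the expressed genes were HOXD8 and HOXD13, both higher in the edited lines, with the genes between them at or near 0. HOXD13, which patterns the digits and the genital tubercle, stood at 1.60, 1.396 and 1.285 FPKM in WT, at 8.67, 10.7 and 9.34 in KO1 and at 5.96, 6.77 and 5.98 in KO2. The 3 groups did not overlap, and KO1 was the highest. The mean was 6.71 times that of WT in KO1 (log2 fold change 2.12 ± 0.09 SE, limma adjusted p = 1.02e-08) and 4.37 times in KO2 (1.58 ± 0.09, adjusted p = 1.31e-07). HOXD8, a gene of the trunk region, stood at 0.491, 1.00 and 0.849 FPKM in WT, at 5.66, 6.09 and 8.35 in KO1 and at 3.70, 3.33 and 3.84 in KO2, again with no overlap. Its mean was 8.58 times that of WT in KO1 (2.11 ± 0.14, adjusted p = 3.15e-07) and 4.64 times in KO2 (1.39 ± 0.14, adjusted p = 9.73e-06; 2.13 with a pseudocount of 0.1).

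Between them on the chromosome, HOXD9, HOXD10 and HOXD11 were above 0 in 1 library each, at 0.046, 0.0475 and 0.0618 FPKM. HOXD12, next to HOXD13, was listed at 0 in all WT libraries, at 0.231, 0.247 and 0.251 in KO1 and at 0.263, 0.359 and 0 in KO2. Its KO1 libraries all lay above WT and its KO2 libraries did not, because of the single 0 (KO1 against WT 0.31 ± 0.10 in the limma fit with no filter, adjusted p = 0.0253). On the other side, HOXD1 and HOXD4 were listed at 0 in all 9 libraries and HOXD3 in 8 of 9, reaching 0.0355 in the last.

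In the HOXB cluster, HOXB9, a paralogue of HOXA9 used in the thoracic skeleton, went from nearly absent to present. It was listed at 0.0278, 0 and 0 FPKM in WT, at 3.53, 3.39 and 3.35 in KO1 and at 1.54, 1.41 and 0.927 in KO2. The groups did not overlap, and the KO1 libraries differed little among themselves. The log2 fold change was 2.13 ± 0.11 in KO1 (limma adjusted p = 3.65e-08) and 1.17 ± 0.11 in KO2 (adjusted p = 4.25e-06); with WT this near 0 its size depends on the pseudocount, and with 0.1 it was 5.02 and 3.65. HOXB9 met the filter only through edited libraries and was bound to stand higher there, so nothing is read from its calls against WT. HOXB8 beside it stayed at or below 0.339 in every library.

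HOXB4, known for expanding blood stem cells when overexpressed, rose in KO2 alone by the test. It stood at 6.50, 8.95 and 8.96 FPKM in WT, at 8.16, 8.25 and 9.18 in KO1 and at 10.9, 10.1 and 10.3 in KO2. KO2 lay above both other groups, and KO1 lay within the WT range except for its highest library. The log2 fold change was 0.34 ± 0.10 in KO2 (limma adjusted p = 0.0151) and 0.07 ± 0.10 in KO1 (adjusted p = 0.562), and KO2 against KO1 gave 0.26 ± 0.10 (adjusted p = 0.0771), so the lines were not shown to differ. WT replicate 1 was the low library: without it the KO2 value was 0.20 (adjusted p = 0.0253) and HOXB4 was higher in KO2 than in KO1 (0.26, adjusted p = 0.00769). The KO2 call was lost without KO2 replicate 1 (0.31, adjusted p = 0.0512), the highest adjusted p of its 19 alternatives, which began at 0.0106.

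The other expressed HOXB genes showed small differences that did not pass. HOXB7, the most abundant HOX transcript, stood at 12.8 ± 0.703 in WT and at 13.8 in both edited lines (± 1.90 in KO1 and ± 0.491 in KO2), with log2 fold changes of 0.09 ± 0.08 in each (limma adjusted p = 0.367 and 0.34). HOXB3 stood at 7.17 ± 0.571, 6.83 ± 0.462 and 6.72 ± 0.327. HOXB13, an androgen receptor partner in the prostate, stood at 0.885 ± 0.154, 1.10 ± 0.224 and 1.26 ± 0.172, and in KO2 its adjusted p was 0.0542; it passed in KO2 under settings that included robust moderation, no trend, only the groups compared and leaving out KO1 replicate 1 (adjusted p = 0.033 to 0.0492, and up to 0.808 over all its alternatives).

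**Figure D4:**
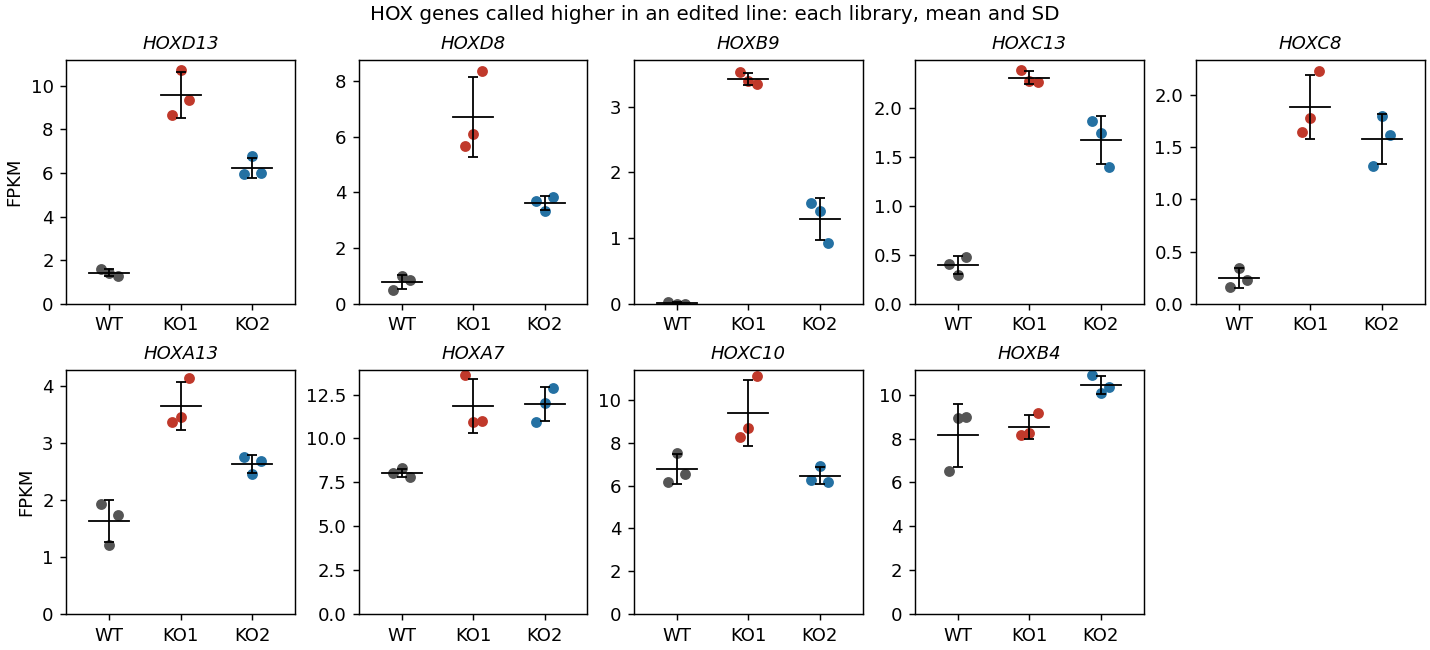
Points give FPKM in each library, with the mean and SD of 3 libraries as bars, for the 9 HOX genes that rose in at least 1 edited line; each panel has its own axis from 0. In HOXD13, HOXD8, HOXB9, HOXC13, HOXC8, HOXA13 and HOXA7 every KO1 and KO2 library lies above every WT library. The genes were picked by their calls, and HOXB9, HOXC8 and HOXC13 met the filter only through edited libraries. Of all rows with any value above 0, 29.3% lay wholly above WT in KO1 and 31.3% in KO2.

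In the HOXC cluster, HOXC8 and HOXC13 rose in both lines and HOXC10 in KO1. HOXC13, needed for hair and nail keratins, stood at 0.411, 0.293 and 0.476 FPKM in WT, at 2.38, 2.27 and 2.26 in KO1 and at 1.86, 1.74 and 1.39 in KO2. The groups did not overlap. The mean was 5.86 times that of WT in KO1 (log2 fold change 1.25 ± 0.09, limma adjusted p = 8.06e-07) and 4.24 times in KO2 (0.93 ± 0.09, adjusted p = 9.41e-06). HOXC13 met the filter only through edited libraries and was bound to stand higher there, so nothing is read from its calls against WT.

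HOXC8, a gene of the thoracic and brachial region, stood at 0.166, 0.346 and 0.231 FPKM in WT, at 1.64, 1.78 and 2.23 in KO1 and at 1.32, 1.80 and 1.62 in KO2. Both edited lines lay above WT and overlapped each other. The mean was 7.61 times that of WT in KO1 (1.21 ± 0.11, limma adjusted p = 3.61e-06) and 6.38 times in KO2 (1.05 ± 0.11, adjusted p = 1.34e-05). HOXC8, too, met the filter only through edited libraries and was bound to stand higher there, so nothing is read from its calls against WT. For HOXC13 and HOXC8 the fitted size, though not the call, moved with the settings: with a pseudocount of 0.1 it was 2.30 and 2.53 in KO1 and 1.85 and 2.29 in KO2, and after quantile normalization it was 0.58 and 0.65 in KO2.

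HOXC10, a lumbar and hindlimb gene already well expressed in WT, stood at 6.19, 7.55 and 6.56 FPKM in WT, at 8.28, 8.72 and 11.2 in KO1 and at 6.29, 6.94 and 6.18 in KO2. KO1 lay above both other groups and KO2 lay among WT. The log2 fold change was 0.41 ± 0.10 in KO1 (limma adjusted p = 0.00497) and -0.05 ± 0.10 in KO2 (adjusted p = 0.675). HOXC4, which is expressed in lymphoid cells, stood at 8.24 ± 0.863, 8.45 ± 0.605 and 8.83 ± 0.839 FPKM and did not pass in either line.

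HOXC11 had the lowest fold changes of the 16. It stood at 0.943, 1.05 and 1.79 FPKM in WT, at 0.769, 0.986 and 1.18 in KO1 and at 0.634, 0.748 and 0.987 in KO2, with overlap throughout. It met the filter through WT replicates 2 and 3 and KO1 replicate 3 alone, so its entry into the test favoured lower edited values. Its log2 fold change was -0.18 ± 0.15 in KO1 (limma adjusted p = 0.303) and -0.32 ± 0.15 in KO2 (adjusted p = 0.075). After quantile normalization it passed as lower in both lines (-0.43 and -0.60, adjusted p = 0.0319 and 0.00692), and in KO2 its other passing settings included median centring (-0.37, adjusted p = 0.0446) and leaving out WT replicate 1 (-0.42, adjusted p = 0.0376). Without WT replicate 3, its highest library, the values shrank to -0.02 in KO1 and -0.16 in KO2 (adjusted p = 0.92 and 0.299). Over its 18 alternatives the adjusted p ran from 0.0319 to 0.92 in KO1 and from 0.00692 to 0.299 in KO2.

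In the HOXA cluster, HOXA7 and HOXA13 rose in both lines, each from a level above 1 FPKM in WT. HOXA13, which acts in the distal limb and hindgut, stood at 1.92, 1.22 and 1.74 FPKM in WT, at 3.36, 3.45 and 4.13 in KO1 and at 2.74, 2.45 and 2.68 in KO2. The groups did not overlap, in the order WT, KO2, KO1. The mean was 2.24 times that of WT in KO1 (0.83 ± 0.11, limma adjusted p = 6.35e-05) and 1.62 times in KO2 (0.47 ± 0.11, adjusted p = 0.00327).

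HOXA7, a member of the HOXA genes raised in MLL-rearranged leukaemias, stood at 8.02, 8.29 and 7.81 FPKM in WT, at 13.6, 10.93 and 11.02 in KO1 and at 10.96, 12.03 and 12.89 in KO2. Both edited lines lay above WT and overlapped each other. The log2 fold change was 0.50 ± 0.09 in KO1 (limma adjusted p = 0.000379) and 0.52 ± 0.09 in KO2 (adjusted p = 0.000343).

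HOXA5 and HOXA6 did not pass in either line. HOXA5, which is used in lung and airway development, was at 5.42 ± 0.996 FPKM in KO1 and 5.22 ± 0.959 in KO2, beside 4.66 ± 0.455 in WT. HOXA6 stood at 1.26, 1.67 and 1.53 in WT, at 2.12, 1.88 and 1.02 in KO1 and at 2.005, 2.43 and 2.12 in KO2, where it lay above WT without overlap (0.36 ± 0.15, limma adjusted p = 0.0538). Its KO2 value passed with robust moderation, with only the groups compared and without KO1 replicate 1 or KO1 replicate 3 (adjusted p = 0.00713 to 0.0479, and up to 0.257 over all its alternatives), and its KO1 value passed without KO1 replicate 3 (0.27, adjusted p = 0.0425).

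By gene number, 3 of the 8 tested genes numbered 4 to 8 rose in KO1 and 4 in KO2, and 5 of the 7 numbered 9 to 13 rose in KO1 and 4 in KO2, beside 35.6% and 38.1% of all tested genes. The counts include HOXC8, HOXB9 and HOXC13, which met the filter only through edited libraries, so nothing is read from them. These classes hold 15 and 16 genes, so the tested genes are only a part of each.

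The remaining 22 genes did not reach the filter. HOXB1, HOXC12, HOXD1 and HOXD4 were listed at 0 in all 9 libraries, and 18 were above 0 in at least 1 library, HOXA3 the highest of them at 1.22 FPKM in KO1 replicate 2. Over the 34 genes with any value above 0, the KO1 libraries all lay above WT for 12, beside 29.3% of 18182 rows, and the KO2 libraries for 11, beside 31.3%, so these counts are close to the background. All KO1 libraries lay below WT for HOXA4 alone, beside 23.7% of rows, and all KO2 libraries for none, beside 20.8%; after quantile normalization these counts were 2 in each line.

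Among the 18 low genes, HOXA11, HOXB5, HOXB6 and HOXD12 lay above WT in all KO1 libraries (4 genes, beside 16.8% of 6445 low rows) and HOXC6 in all KO2 libraries (1 gene, beside 14.9%). HOXA4 lay below WT in KO1 (1 gene, beside 7.79%), and none did in KO2 (beside 6.04%). In the limma fit with no filter, HOXA11, HOXB6 and HOXD12 passed as higher in KO1 (3 genes, beside 13.3% of low rows) and HOXA4 as lower (1 gene, beside 5.9%). In KO2 none of the 18 passed as higher or lower by limma (2 and 1 at an unadjusted p under 0.05), beside 9.11% and 4.86% of low rows.

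HOXB6, a gene of fetal erythroid cells, was listed at 0 in all WT libraries, at 0.2004, 0.212 and 0.262 FPKM in KO1 and at 0, 0.0515 and 0 in KO2. It was thus above 0 in every KO1 library and in 1 KO2 library (KO2 against KO1 -0.27 ± 0.03, limma adjusted p = 0.000377). HOXA11, a forearm and uterus gene, stood at 0, 0.0328 and 0 in WT, at 0.336, 0.194 and 0.380 in KO1 and at 0.0682, 0 and 0.202 in KO2 (KO1 against WT 0.36 ± 0.07, adjusted p = 0.00352). Between KO2 and KO1, HOXA11 and HOXB6 passed as lower in that fit (2 genes, beside 5.9% of low rows) and none as higher by limma (0 at an unadjusted p under 0.05, beside 2.19%).

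HOXA4 ran the other way, at 0.861, 0.679 and 0.418 FPKM in WT, down to 0.194, 0.205 and 0.254 in KO1, with 0.326, 0.547 and 0.108 in KO2. KO1 lay below WT and KO2 overlapped it (KO1 against WT -0.43 ± 0.13, limma adjusted p = 0.0242 with no filter). HOXA9 was above 0 in 2 libraries at most 0.0438, and HOXA10 in 4 edited libraries at most 0.186. At these levels, under 1 FPKM, differences between libraries can rest on few fragments.

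The edited lines differed from each other in 6 of the 16 tested HOX genes, all lower in KO2: HOXA13, HOXB9, HOXC10, HOXC13, HOXD8 and HOXD13 (limma adjusted p under 0.05, beside 12.4% of all tested genes). None passed as higher by limma (1, HOXB4, at an unadjusted p under 0.05), beside 18.3%. In 5 of the 6 the KO2 level lay between WT and KO1, and in HOXC10 it lay among WT. HOXB9 differed most (-0.96 ± 0.11, adjusted p = 9.39e-05), then HOXD8 (-0.72 ± 0.14, adjusted p = 0.00326), HOXD13 (-0.54 ± 0.09, adjusted p = 0.0011) and HOXC10 (-0.47 ± 0.10, adjusted p = 0.00705). HOXB9 was above 1 FPKM in every KO1 library but not in KO2 replicate 3 (0.927), so its entry into the test favoured higher KO1 values.

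HOXA13 (-0.36 ± 0.11, limma adjusted p = 0.033) and HOXC13 (-0.31 ± 0.09, adjusted p = 0.0287) depended more on the settings. HOXA13 lost its call with no filter, with a pseudocount of 0.1 and without KO1 replicate 2, KO1 replicate 3 or any KO2 library (adjusted p = 0.0557 to 0.113, and from 0.014 over all its alternatives). HOXC13 lost its call under settings that included a pseudocount of 0.1 and leaving out any KO1 library, KO2 replicate 2 or KO2 replicate 3 (adjusted p = 0.0559 to 0.0995, and from 0.013 over all its alternatives).

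The genes around the HOXD cluster moved with it in this comparison. Of the 8 nearest protein-coding genes on each side, 13 were tested, and in KO2 against KO1 all 13 had log2 fold changes below 0, 12 of them passing as lower and 0 as higher by limma (0 at an unadjusted p under 0.05), beside 12.4% and 18.3% of all tested genes. Their median was -0.38 and their range ran from -0.96 for OSBPL6, an oxysterol-binding protein gene, to -0.05 for IFT70B. Around HOXA, HOXB and HOXC the medians of the neighbours were -0.03, 0.07 and -0.01. The lower HOXD8 and HOXD13 levels in KO2 than in KO1 thus coincide with lower levels of neighbouring genes that are not HOX genes, and the part of the wider region in that difference was not tested.

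Against WT the neighbours of HOXD moved in both directions. Their median was 0.14 in KO1, with 7 of 13 higher and 3 lower (beside 35.6% and 31.9% of all tested genes), and -0.10 in KO2, with 2 higher and 5 lower (beside 38.1% and 26.6%). The stress-responsive transcription factor gene ATF2 fell in both lines, from 34.2 ± 2.31 FPKM to 25.8 ± 0.624 and 18.4 ± 0.576. OSBPL6 rose from 0.204 ± 0.0651 FPKM to 4.79 ± 0.281 in KO1 and 1.98 ± 0.129 in KO2, with log2 fold changes of 2.27 ± 0.08 and 1.31 ± 0.08 beside 2.12 ± 0.09 and 1.58 ± 0.09 for HOXD13. OSBPL6 met the filter only through edited libraries and was bound to stand higher there, and the counts of higher neighbours include it. The log2(FPKM + 1) scale also understates its ratio more than that of HOXD13, because its WT level is lower. Beside the other clusters, the largest log2 fold changes averaged over both edited lines were of NFE2L3 near HOXA (6.95 ± 0.233 FPKM to 18.7 ± 1.08 and 14.8 ± 0.966), of IGF2BP1 near HOXB (17.5 ± 0.767 to 26.6 ± 0.55 and 25.03 ± 0.461) and of NFE2 near HOXC (0.224 ± 0.0868 to 3.01 ± 0.493 and 3.97 ± 0.459). NFE2, too, met the filter only through edited libraries.

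**Figure D5:**
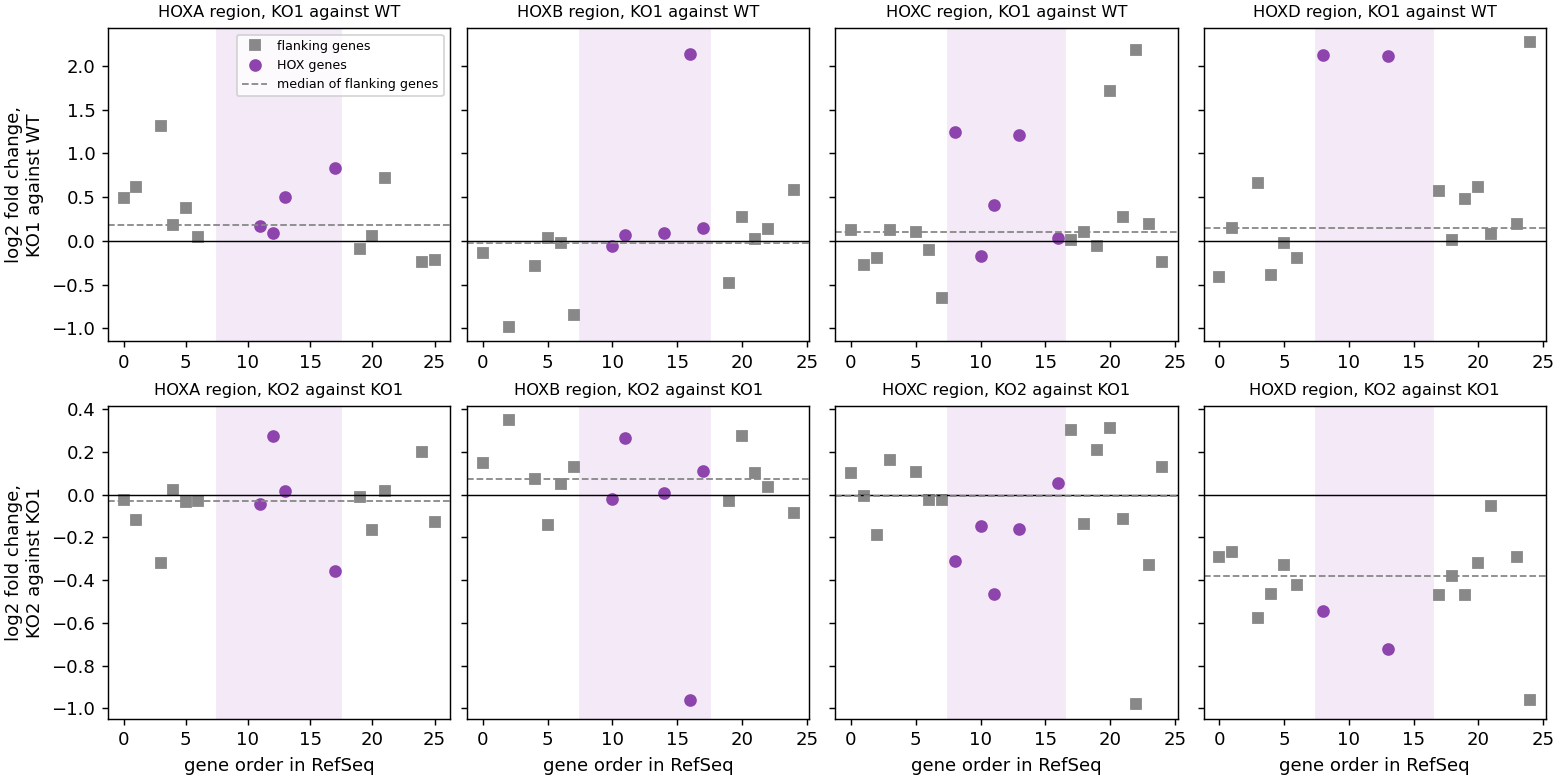
Points give log2 fold changes on the log2(FPKM + 1) scale in RefSeq gene order, for tested HOX genes (purple, shaded span) and tested genes among the 8 nearest protein-coding genes on each side (grey), with the neighbours' median dashed; the upper row is KO1 against WT and the lower row KO2 against KO1. In the lower right panel all 13 neighbours of HOXD lie below 0 with a median of -0.38.

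Several DNA-binding partners of HOX proteins were also higher in the edited lines. Of 9 listed TALE cofactor genes 6 were tested, and MEIS1, MEIS2, PBX3 and PKNOX1 rose in both lines; none fell by limma (1 in KO1 and 0 in KO2 at an unadjusted p under 0.05). Of all tested genes, 35.6% were higher and 31.9% lower in KO1, with 38.1% higher and 26.6% lower in KO2, and the counts of the lists that follow stand beside the same shares. The median log2 fold change of the 6 was 0.53 in KO1 and 0.46 in KO2. MEIS2 stood at 2.06, 2.13 and 2.16 FPKM in WT, at 11.5, 11.8 and 12.6 in KO1 and at 7.21, 7.34 and 7.08 in KO2, with no overlap and in the same order of groups as HOXD13 and HOXD8 (2.05 ± 0.06 and 1.397 ± 0.059, limma adjusted p = 7.67e-10 and 1.92e-08). MEIS1, a partner of HOXA9 in leukaemia, stood at 0.378 ± 0.0481, 1.45 ± 0.158 and 0.889 ± 0.125 FPKM. It met the filter only through edited libraries and was bound to stand higher there. Nothing is therefore read from the count of higher genes or the medians of this list. PBX2, the lowest of the list on the fitted scale, stood at 26.3 ± 1.87, 23.4 ± 1.77 and 23.9 ± 1.38 and did not pass (adjusted p = 0.0588 and 0.13). MEIS1, PBX3 and PKNOX1 were named after their values were seen.

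Trithorax, MLL complex and elongation genes, which keep active HOX genes on, moved in both directions. All 19 were tested, with 3 higher and 9 lower in KO1 (beside 35.6% and 31.9% of all tested genes) and 5 higher and 8 lower in KO2 (beside 38.1% and 26.6%; medians -0.07 and -0.05). The elongation factor gene MLLT1 rose most, from 17.5 ± 1.19 FPKM to 21.5 ± 0.798 in KO1 and 24.6 ± 1.39 in KO2. Its paralogue MLLT3 fell most, from 10.6 ± 0.487 to 5.52 ± 0.497 and 6.63 ± 0.308. MLL itself, KMT2A, fell from 22.2 ± 2.57 to 18.3 ± 1.91 and 16.9 ± 1.25 (-0.27 and -0.37, limma adjusted p = 0.0252 and 0.00509), and was named after its values were seen.

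CDX factors and retinoic acid switch on HOX genes in the embryo. CDX1, CDX2 and CDX4 were listed at 0 in all 9 libraries. Of 18 listed genes of this group 7 were tested, with 4 higher and 2 lower in KO1 and 5 higher and 2 lower in KO2. The higher counts include CYP26A1, which met the filter only through KO1 libraries and was bound to stand higher there. Nothing is therefore read from these counts, and CYP26A1 was named after its values were seen. CYP26B1, which breaks down retinoic acid, rose from 2.31 ± 0.458 FPKM to 6.71 ± 0.168 and 5.95 ± 0.25, and ALDH1A2, which makes it, fell from 110 ± 5.9 to 50.1 ± 3.45 and 48.1 ± 0.698. The receptor gene RXRA, named after its values were seen, rose from 2.51 ± 0.141 to 5.72 ± 0.288 and 7.16 ± 0.333.

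Of 10 HOX-related homeobox genes outside the clusters, such as EVX1 and EVX2 at the cluster ends, MNX1 alone was tested. It fell in KO1 (4.82 ± 0.526 to 3.33 ± 0.431 FPKM, limma adjusted p = 0.00819) and stood at 3.87 ± 0.687 in KO2 (adjusted p = 0.0726). EVX1 and EVX2 were listed at 0 in every library, EVX2 although it lies beside HOXD13.

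Of 16 non-coding RNA genes of the clusters 3 were tested. HAGLROS and HOTAIR met the filter only through edited libraries and were bound to stand higher there, so nothing is read from their calls. HAGLROS, an antisense RNA of the HOXD region, stood at 0.435, 0.161 and 0 FPKM in WT, at 3.53, 3.45 and 3.40 in KO1 and at 1.01, 2.28 and 1.33 in KO2 (1.91 ± 0.18 and 1.07 ± 0.18, limma adjusted p = 3.78e-06 and 0.000334). The groups did not overlap, in the order seen for HOXD8 and HOXD13. HAGLR, whose span overlaps HOXD1, did not meet the filter but followed the same order, at 0.196 ± 0.0687, 0.858 ± 0.0357 and 0.507 ± 0.0318 FPKM, while HOXD1 was listed at 0.

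HOTAIR, which lies across from HOXC11, stood at 0.195, 0.333 and 0.408 FPKM in WT, at 0.826, 0.911 and 1.27 in KO1 and at 1.04, 0.601 and 1.15 in KO2. Both lines lay above WT (0.61 ± 0.13 and 0.55 ± 0.13, limma adjusted p = 0.00218 and 0.00441), whereas HOXC11 on the opposite strand had fold changes below 0 that did not pass. HOTAIR, like HAGLROS, met the filter only through edited libraries. HOTAIRM1, an RNA of the HOXA cluster, fell in both lines by limma, from 5.56 ± 1.55 FPKM to 2.87 ± 0.858 and 3.63 ± 0.298 (adjusted p = 0.00483 and 0.0483). It stood at 3.83, 6.01 and 6.83 FPKM in WT, at 3.12, 3.57 and 1.91 in KO1 and at 3.97, 3.48 and 3.43 in KO2. KO1 lay below WT and KO2 overlapped it, with an adjusted p close to the threshold. HOTTIP, at the HOXA13 end of the cluster, was listed at 0 in all WT libraries and reached at most 0.0696 FPKM in an edited line.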

How the data were processed

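RNA was measured in 9 libraries of Jurkat cells, prepared with a poly(A) RNA kit per the labels' protocols, and sample titles gave the groups and replicate numbers. The values are FPKM, which the authors deposited as 1 table with a column per library. The submitters' processing notes list hg19 as the genome build and, as tools of unstated role, Cufflinks 2.2.1, STAR 2.5.0b and bedtools 2.7.0. Which gene annotation was used, and whether counting used strand, is not stated there. Of 26228 rows, 38 hold text in place of values, none of them a HOX gene, and were left out. FPKM keep no counts, so read depth is unknown and no counting interval is given; steps between low values put relative depth at 0.964 to 1.16 times that of WT replicate 3. There were 0 pairs of identical columns.

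Genes with at least 1 FPKM in 3 or more of 9 libraries (11737) were fitted as log2(FPKM + 1) with limma (version 3.58.1, R 4.3.3), in a single model of all libraries with a mean for each group, a mean-variance trend and no covariates, and p-values were adjusted by Benjamini-Hochberg over all tested genes with a threshold of 0.05. The fit was tested on simulated data. Fold changes on this scale understate those of weakly expressed genes, so ratios of mean FPKM are given where WT was above 0 in every library. A value of 0 can be a failed estimate and is written as listed at 0. Genes under the filter were compared by whether groups overlapped and, as an alternative, in a fit with no filter.

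The HOX genes and the lists of cofactors, regulators, non-coding RNAs and markers were chosen with earlier results of these data known. 1 HOX gene and 1 marker gene are not reported here, though both stayed in the fit. All other HOX genes may be named; of each other list the genes with the largest and the smallest log2 fold change averaged over both edited lines, and EVX1, EVX2 and EZH2. HOTAIR, HAGLR, HOTTIP, CDX1, CDX2, CDX4, IFT70B and the marker genes named were picked after their values were seen, as were others where the text says so. The windows, motif search, overlaps and the subset at 1 FPKM in all WT libraries were also chosen after values were seen. RefSeq (GRCh38.p14) gave gene order, overlaps and sequences; no coordinates were taken across builds. The 1 symbol of the lists that holds text in the table, RXRB, was left out. Replicate numbers did not pair samples: deviations of same-numbered samples correlated from -0.287 to 0.318, and those of other pairs from -0.266 to 0.343. Alternatives were other filters (none, 5 FPKM), pseudocounts (0.1, 0.5), quantile normalization, median centring, robust or trendless moderation, only the groups compared, stricter thresholds, a replicate block and leaving out each library.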

Additional observations from a re-analysis of the deposited data

Results flagged for a closer look

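The difference between KO2 and KO1 passed the test for 6 of the 16 tested HOX genes, each lower in KO2 (limma adjusted p under 0.05 for the difference itself), beside 12.4% of all tested genes. The log2 fold changes of KO2 against KO1 were -0.96 for HOXB9, -0.72 for HOXD8, -0.54 for HOXD13, -0.47 for HOXC10, -0.36 for HOXA13 and -0.31 for HOXC13, and the last pair lost the call under several alternatives (adjusted p up to 0.113 and 0.0995). All 13 tested neighbours of the HOXD cluster were also below 0 in this comparison, with a median of -0.38.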

How the results depend on the processing

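The counts of HOX genes that passed are read here only as a check on the settings. Apart from rises of at least 2-fold against WT (5.56% of all tested genes in KO1 and 3.89% in KO2), shares of all genes under these settings are not given. The counts changed as follows. With a filter at 5 FPKM, 4 rose in KO1, 4 in KO2 and 3 were lower in KO2 than in KO1; with at least 2-fold these counts were 5, 4 and 0. As lower against WT, 1 gene passed in KO1 with no filter (HOXA4) and 1 after quantile normalization (HOXC11), and in KO2 1 (HOXC11) after quantile normalization, after median centring and with the replicate block. HOXB4 was the 1 gene higher in KO2 than in KO1 with only the groups compared. Of genes whose edited libraries all lay below WT, quantile normalization gave 2 in KO1 and 2 in KO2. With each library left out in turn, 8 to 9 genes rose and 0 to 0 fell in KO1, 7 to 10 rose and 0 to 1 fell in KO2, and 0 to 1 were higher and 4 to 6 lower in KO2 than in KO1; genes without overlap numbered 12 to 18 above and 1 to 2 below WT in KO1, and 12 to 15 and 0 to 2 in KO2. HOXC11 was the gene that fell, and HOXB4 the gene higher in KO2 than in KO1, both without WT replicate 1. With a library left out, groups separate more easily for any gene, so nothing is read from the larger counts of genes without overlap.

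With the replicate block, used although the numbers did not pair the samples, 8 genes rose in KO1, 9 in KO2 (HOXB13 added, adjusted p = 0.0358) and 5 were lower in KO2 than in KO1 (HOXC13 lost, adjusted p = 0.05); HOXC11 passed as lower in KO2 (adjusted p = 0.0194). Over single genes and alternatives, 288 of 297 values kept direction and side of the threshold in KO1 against WT, 282 of 297 in KO2 against WT and 265 of 297 in KO2 against KO1. Signs changed only for values that did not pass. After quantile normalization, KO1 against WT was -0.098 for HOXA6 and -0.12 for HOXB13, and KO2 against KO1 was -0.022 for HOXA7 and -0.025 for HOXB7; after median centring the last pair was -0.019 and -0.028. With libraries left out, KO1 against WT ran from -0.039 to 0.27 for HOXA6, from -0.065 to 0.14 for HOXB4, from -0.013 to 0.16 for HOXB7 and from -0.044 to 0.087 for HOXC4, KO2 against WT ran from -0.11 to 0.018 for HOXC10, and KO2 against KO1 ran from -0.17 to 0.089 for HOXA5, from -0.036 to 0.11 for HOXA7, from -0.069 to 0.0067 for HOXB3, from -0.064 to 0.11 for HOXB7 and from -0.012 to 0.11 for HOXC4. All genes' median moved by under 0.1 on the log2 scale between scalings. No alternative was left out, and levels under 1 FPKM limit what can be said of the 22 genes below the filter.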
